A study of Mus musculus with 6 samples.

Results

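Cyp2e1, Hp and 8 genes used as markers of adipocytes (fat cells) were followed library by library in PRR14-knockout mouse skeletal muscle. The 10 genes were chosen by symbol, with the MEF2C-to-GFP difference of Cyp2e1 and Hp and the levels of the adipocyte markers already known, out of 22036 gene rows. All 10 were found in the table, and 9 of them were among the 9229 genes with enough reads to be tested. Because that difference helped to choose them, it is given as a description, and the calls of genome-wide tests on the members support nothing here. Of interest was whether Cyp2e1 and Hp track the adipocyte markers across libraries.

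The libraries were 3 labelled MEF2C, from knockout (KO) muscle injected with an AAV vector (adeno-associated virus) that encodes MEF2C-GFP, and 3 labelled GFP, from KO muscle injected with an AAV for GFP alone, all taken 1 month after injection. All 6 therefore share the KO and the injection, and no muscle, strain or age is named in the labels. Each library holds 3370833 to 3900617 counted long reads from Oxford Nanopore PCR-cDNA sequencing. Mef2c itself, the muscle transcription factor that the virus carried, stood at 234, 196 and 371 normalised CPM (counts scaled to library size, with TMM factors) in MEF2C replicates 1, 2 and 3, against 223, 261 and 236 in GFP replicates 1, 2 and 3. Replicates 1 and 2 of the MEF2C group lay within or below the GFP range for Mef2c, and directions below are those of the libraries labelled MEF2C. Reads of Prr14 were sparse, with counts of 30, 23 and 20 in the MEF2C libraries against 11, 12 and 15 in the GFP libraries.

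White adipocytes store fatty acids as triglyceride in a lipid droplet and secrete hormones and plasma proteins. Skeletal muscle holds such cells between its fibres and on its surface. Cyp2e1 encodes a cytochrome P450 that oxidises ethanol, acetone and other small molecules, and Hp encodes haptoglobin, the plasma protein that binds free haemoglobin. Both are best known from the liver, both are also made by mouse adipocytes, and haptoglobin is in addition stored in neutrophil granules. In bulk muscle, fewer cells of a type and less RNA per cell cannot be told apart.

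Cyp2e1 (ENSMUSG00000025479) lies on the plus strand of GRCm38 chromosome 7 at 140763739 to 140774987 and Hp (ENSMUSG00000031722) on the minus strand of chromosome 8 at 109575128 to 109579172. Both are protein-coding, and 0 other GENCODE genes overlap the locus of any of the 10 members. The markers are protein-coding too and lie at chromosome 16, 23146536 to 23158028 (Adipoq), chromosome 6, 29060220 to 29073877 (Lep), chromosome 7, 79720218 to 79732903 (Plin1) and chromosome 10, 79890853 to 79892655 (Cfd). Fabp4 lies at chromosome 3, 10204088 to 10208576, Car3 at chromosome 3, 14863512 to 14872523, Cidec at chromosome 6, 113424634 to 113435760, and Scd1 at chromosome 19, 44394455 to 44407879. RefSeq promoter windows (build GRCm38.p6) matched 6 of the 10 symbols, with 7 windows of 250 bases before the RefSeq start. They were searched on both strands for AGGTCA (the nuclear receptor half-site of PPARG-type factors), for 2 such sites with 1 base between them, for TTNNGCAA (the site of the C/EBP factors of adipocytes) and for CTANNNNTAG (the MEF2 site). The C/EBP letters stood in 3 of the 7 windows, those of Lep, Plin1 and the second Cidec window, while 9.56% of all 32851 windows hold them. The half-site and the MEF2 letters stood in 0 of the 7, against 14.0% and 3.20% of all windows, and the repeated half-site in 0 of the 7, against 0.0335%. Windows of Cyp2e1, of Adipoq and of Lep are shown to set Cyp2e1 beside a marker without and a marker with the C/EBP letters, which are in capitals and begin 55 bases before the Lep start. A match is a description of letters and not a site shown to be used. RefSeq starts can differ from the gene spans above. The windows of Cyp2e1 and Plin1 reach into those spans, and the second Cidec window lies wholly inside the Cidec span.
Cyp2e1, chr7:140763569-140763818, plus strand: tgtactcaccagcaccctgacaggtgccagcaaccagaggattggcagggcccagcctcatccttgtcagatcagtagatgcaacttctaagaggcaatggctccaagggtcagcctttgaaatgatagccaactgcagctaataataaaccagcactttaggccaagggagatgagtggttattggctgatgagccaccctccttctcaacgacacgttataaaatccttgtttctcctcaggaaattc
Adipoq, chr16:23146286-23146535, plus strand: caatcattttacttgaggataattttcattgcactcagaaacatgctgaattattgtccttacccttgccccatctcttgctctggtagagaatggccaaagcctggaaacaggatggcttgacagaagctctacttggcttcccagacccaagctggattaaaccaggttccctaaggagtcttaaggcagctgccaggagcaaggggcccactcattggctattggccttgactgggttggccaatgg
Lep, chr6:29059971-29060220, plus strand: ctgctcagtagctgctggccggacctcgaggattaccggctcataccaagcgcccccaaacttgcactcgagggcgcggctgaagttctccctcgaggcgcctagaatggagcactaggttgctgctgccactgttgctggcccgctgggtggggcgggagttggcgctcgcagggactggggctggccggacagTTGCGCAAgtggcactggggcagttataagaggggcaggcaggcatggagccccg

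Cyp2e1 was higher in every library labelled MEF2C than in any GFP library. It had 189, 295 and 212 counts in MEF2C replicates 1, 2 and 3, against 73, 86 and 107 in GFP replicates 1, 2 and 3. On the normalised scale this was 49.0, 73.5 and 51.3 CPM in the MEF2C libraries and 21.6, 27.4 and 28.4 CPM in the GFP libraries. MEF2C replicate 2 was the highest by more than counting error, while replicates 1 and 3 did not differ beyond it, nor did neighbouring GFP libraries. Means were 57.9 ± 13.5 CPM in the MEF2C group and 25.8 ± 3.65 CPM in the GFP group (SD, n = 3 each), and the log2 fold change was 1.16 ± 0.19 (SE, edgeR).

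Hp, haptoglobin, was also higher in every MEF2C library, with another order. It had 223, 241 and 123 counts in MEF2C replicates 1, 2 and 3, against 37, 58 and 75 in GFP replicates 1, 2 and 3. Normalised levels were 57.8, 60.0 and 29.8 CPM in the MEF2C libraries and 10.96, 18.5 and 19.9 CPM in the GFP libraries. MEF2C replicates 1 and 2 did not differ beyond counting error and both stood above replicate 3. Means were 49.2 ± 16.9 CPM in the MEF2C group and 16.4 ± 4.80 CPM in the GFP group (SD, n = 3 each), with a log2 fold change of 1.57 ± 0.32 (SE, edgeR).

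**Figure D1:**
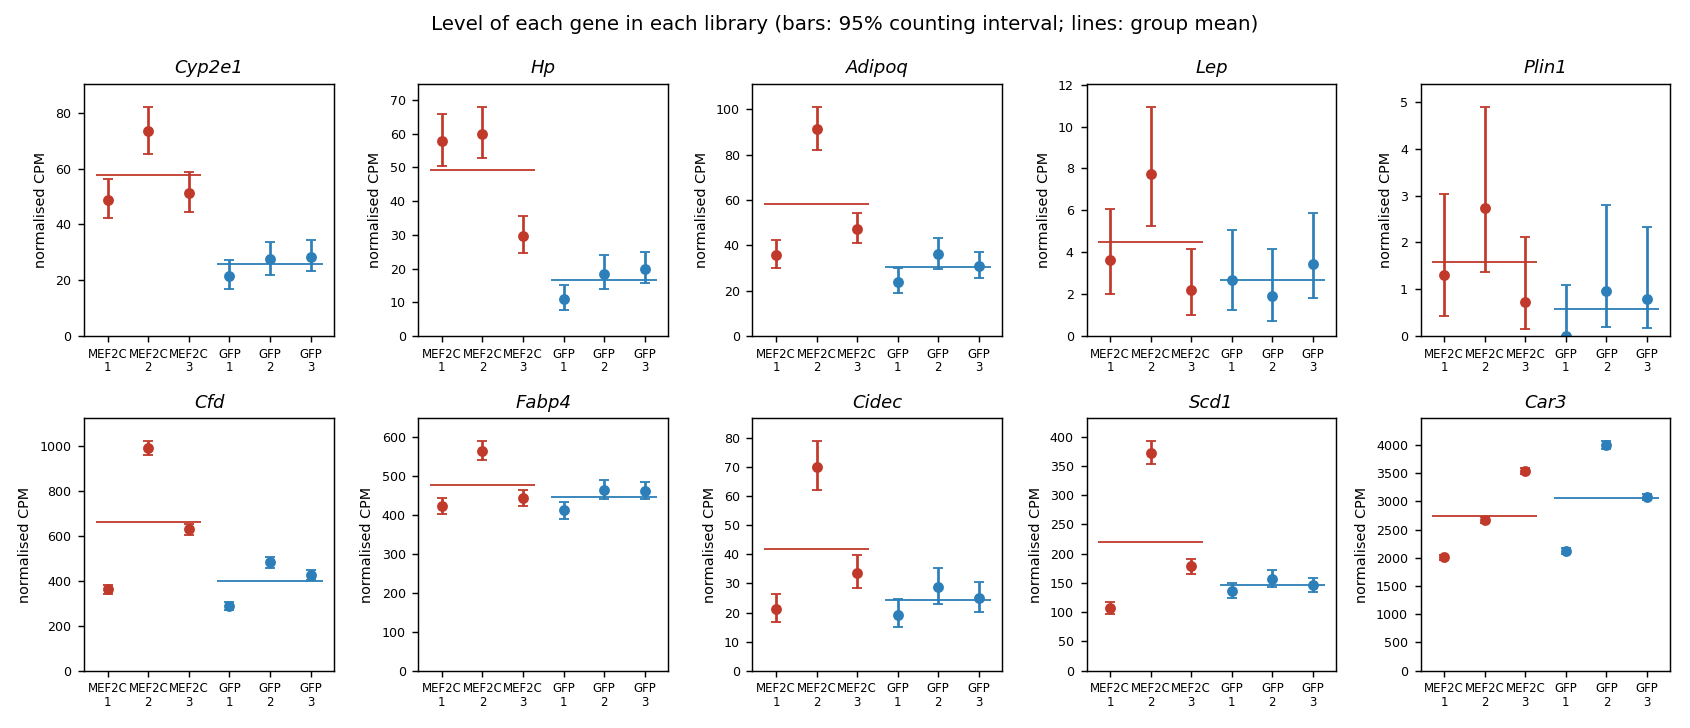
Normalised CPM (vertical axes, from 0) of the 10 genes in each library, MEF2C in red and GFP in blue, with 95% counting intervals and lines at the group means. Cyp2e1 and Hp are above the GFP libraries in all 3 MEF2C libraries, whereas Adipoq, Cfd, Cidec and Scd1 stand out mainly in MEF2C replicate 2, for instance Scd1 at 373 CPM.

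The secreted adipocyte products were highest in MEF2C replicate 2 and close to the GFP level in MEF2C replicate 1. Adipoq, the adipocyte hormone adiponectin, was at 35.8, 91.4 and 47.2 CPM in MEF2C replicates 1, 2 and 3, against 24.0, 36.1 and 30.7 CPM in GFP replicates 1, 2 and 3. MEF2C replicate 1 lay inside the GFP range, and the log2 fold change was 0.94 ± 0.38 (SE). Cfd, adipsin (complement factor D), stood at 361, 988 and 629 CPM in the MEF2C libraries and at 288, 482 and 425 CPM in the GFP libraries, again with replicate 1 inside the GFP range. Lep, the satiety hormone leptin, was sparse, with 14, 31 and 9 counts in the MEF2C libraries and 9, 6 and 13 in the GFP libraries. Its MEF2C replicate 3 lay between GFP replicates 1 and 2 on the normalised scale, at 2.18 CPM against 2.67 and 1.91 CPM. Without MEF2C replicate 2 the log2 fold change was 0.45 for Adipoq, 0.31 for Cfd (0.73 ± 0.43 with all libraries) and 0.090 for Lep (0.73 ± 0.46 with all). Leaving out MEF2C replicate 1 instead gave 1.19 for Adipoq, 1.02 for Cfd and 0.85 for Lep, beside 1.27 for Cyp2e1.

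Lipid droplet and lipid-synthesis markers divided the libraries in the same way. Cidec, a droplet protein that fuses droplets into one large store, was at 21.2, 70.2 and 33.6 CPM in MEF2C replicates 1, 2 and 3, against 19.3, 28.7 and 24.9 CPM in GFP replicates 1, 2 and 3. Plin1, perilipin 1, which coats the adipocyte droplet, had only 5, 11 and 3 counts in the MEF2C libraries and 0, 3 and 3 in the GFP libraries, too few to be tested or ordered. The count of 0 in GFP replicate 1 allows up to 0.889 CPM by the limit of 3 counts. Scd1, the desaturase that makes monounsaturated fatty acids, stood at 107, 373 and 178 CPM in the MEF2C libraries and at 137, 157 and 146 CPM in the GFP libraries. MEF2C replicate 1 was below all 3 GFP libraries for Scd1. Without MEF2C replicate 2 the log2 fold change of Cidec was 0.17, and without MEF2C replicate 1 it was 1.09, against 0.78 ± 0.48 (SE) with all libraries.

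Fabp4 and Car3 had the smallest fold changes of the members. Fabp4, the fatty acid carrier of adipocytes that capillary endothelium also makes, stood at 423, 566 and 444 CPM in the MEF2C libraries and at 412, 466 and 463 CPM in the GFP libraries. Summed endothelial markers stood at 489, 430 and 449 CPM in the MEF2C libraries and 424, 451 and 427 CPM in the GFP libraries. Their peak was in MEF2C replicate 1, whereas that of Fabp4 was in MEF2C replicate 2. Car3, carbonic anhydrase 3, which muscle fibres make as well as fat, stood at 2010, 2671 and 3532 CPM in the MEF2C libraries and at 2122, 3992 and 3073 CPM in the GFP libraries. It was the only marker of the 8 without its MEF2C maximum in replicate 2, and its log2 fold change of -0.16 ± 0.30 (SE) turned positive when MEF2C replicate 1 (0.012) or GFP replicate 2 (0.072) was left out, and was -0.39 without MEF2C replicate 3 and -0.38 without GFP replicate 1. Fabp4 (log2 fold change 0.10 ± 0.13) and Scd1 (0.58 ± 0.50) turned negative without MEF2C replicate 2, at -0.046 and -0.043, and without MEF2C replicate 1 Scd1 was at 0.91 and Fabp4 at 0.17.

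Set against the mean of the GFP libraries, MEF2C replicate 2 held 2.71 times as much of the median marker and MEF2C replicate 3 held 1.23 times as much. MEF2C replicate 1 held 0.927 times as much. In MEF2C replicate 2, Cyp2e1 was 2.85 times and Hp 3.65 times the GFP mean, beside Adipoq at 3.02 and Cidec at 2.89 times. In MEF2C replicate 1, Cyp2e1 was 1.90 times and Hp 3.51 times the GFP mean. Beside them stood Plin1 at 2.22, Lep at 1.36, Adipoq at 1.18, Fabp4 at 0.948, Cfd at 0.906, Cidec at 0.875, Scd1 at 0.728 and Car3 at 0.657 times. In MEF2C replicate 3, Cyp2e1 was 1.99 times and Hp 1.81 times the GFP mean, beside Cfd at 1.58, Adipoq at 1.56, Cidec at 1.38, Plin1 at 1.24, Scd1 at 1.22, Car3 at 1.15, Fabp4 at 0.993 and Lep at 0.814 times. In replicate 2 both genes stood above the GFP mean together with 7 of the 8 markers. In replicate 1 they did so while Cfd, Cidec, Scd1, Fabp4 and Car3 were below it. Adipoq, Lep and Plin1 were above it there, Lep and Plin1 on only 14 and 5 counts.

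**Figure D2:**
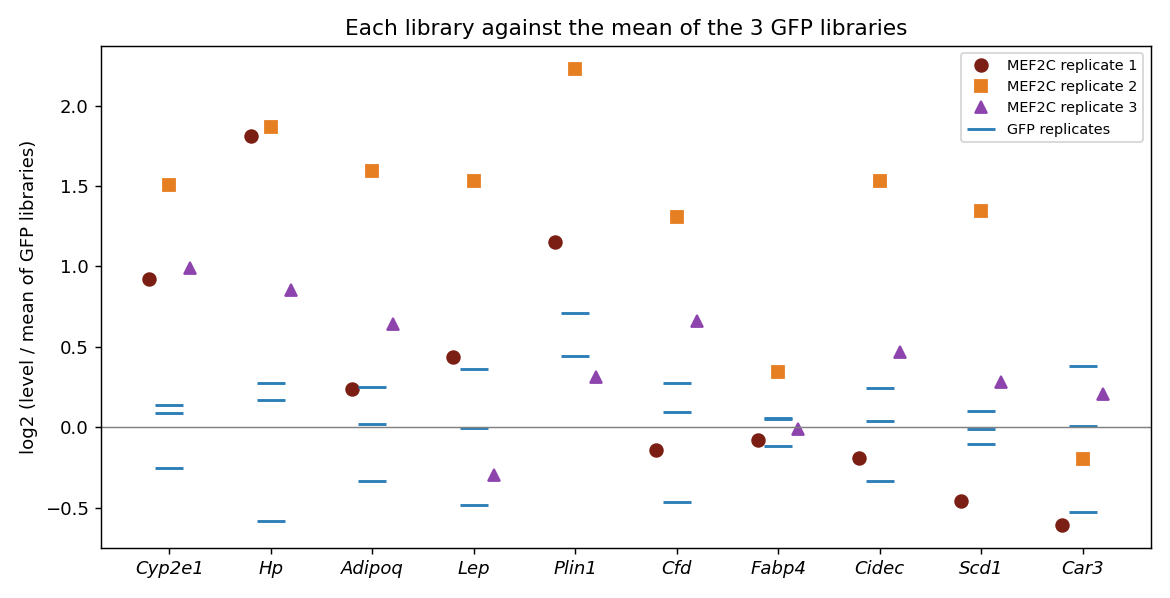
Log2 of the level over the mean of the 3 GFP libraries for the 10 genes, with a symbol for each MEF2C library and blue dashes for the GFP libraries; GFP replicate 1 has no Plin1 read and no dash there. MEF2C replicate 1 (circles) is far above the GFP dashes for Hp, at 3.51 times the GFP mean, and below 0 for Cfd, Cidec, Scd1, Fabp4 and Car3. It is above 0 for Adipoq, Lep and Plin1, the last at 2.22 times on 5 counts.

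Not every step of the library order was larger than counting error. In the MEF2C group, replicate 2 stood above the next library beyond counting error for Cyp2e1 and for 6 of the 8 markers (Adipoq, Lep, Cfd, Fabp4, Cidec and Scd1). Replicate 3 stood above replicate 1 beyond counting error for Adipoq, Cfd, Cidec, Scd1 and Car3, whereas Cyp2e1 did not differ between them beyond it. Hp was the other way round there, with replicate 1 above replicate 3 beyond counting error. In the GFP group no step was beyond counting error for Cyp2e1, Adipoq, Lep, Plin1, Cidec or Scd1, and for Hp replicate 1 was below the others. For Cfd and Car3 both steps were, with replicate 2 highest and replicate 1 lowest. Of the 8 markers, 0 had the full GFP order of Cyp2e1 and Hp, 1 had their highest library and 7 their lowest. In the MEF2C group 5 had the full order of Cyp2e1 and 2 that of Hp. The 2 were the sparse Lep and Plin1, for which replicates 1 and 3 did not differ beyond counting error. The highest GFP library was 1.31 times the lowest for Cyp2e1, 1.81 times for Hp and 1.502 times for Adipoq, and the widest such ratio among the markers with reads in all libraries was 1.88 times, for Car3.

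Reads counted per 100 reads of a marker in the same library need no scaling between libraries. Per 100 Adipoq reads there were 137, 80.4 and 109 Cyp2e1 reads in MEF2C replicates 1, 2 and 3, against 90.1, 76.1 and 92.2 in GFP replicates 1, 2 and 3. The exact binomial 95% interval of MEF2C replicate 1, 109 to 172, overlapped those of MEF2C replicate 3 and of GFP replicates 1 and 3. For Cyp2e1 relative to Adipoq, therefore, the MEF2C and GFP libraries overlapped, with MEF2C replicate 2 between GFP replicates 1 and 2.

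Hp relative to Adipoq put 1 library apart. There were 162, 65.7 and 63.1 Hp reads per 100 Adipoq reads in MEF2C replicates 1, 2 and 3, against 45.7, 51.3 and 64.7 in GFP replicates 1, 2 and 3. The interval of MEF2C replicate 1, 130 to 201, lay above the intervals of the other 5 libraries, whose upper bounds reached at most 87.2. Per 100 Cfd reads the same library stood apart for both genes, with 16.01 Hp reads (interval 13.8 to 18.5) and 13.6 Cyp2e1 reads (11.6 to 15.8), against at most 6.07 and 8.15 in the other 5. Per 100 Scd1 reads it had 54.1 Hp and 45.9 Cyp2e1 reads, against at most 16.7 and 28.8 elsewhere. Per 100 Cidec reads it had 272 Hp reads, against at most 88.5 elsewhere. Its 230 Cyp2e1 reads per 100 Cidec reads (interval 177 to 302) overlapped MEF2C replicate 3 (123 to 190). Cyp2e1 was highest in MEF2C replicate 3 per 100 Lep reads and in MEF2C replicate 2 per 100 Car3 reads. These intervals cover counting error only.

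**Figure D3:**
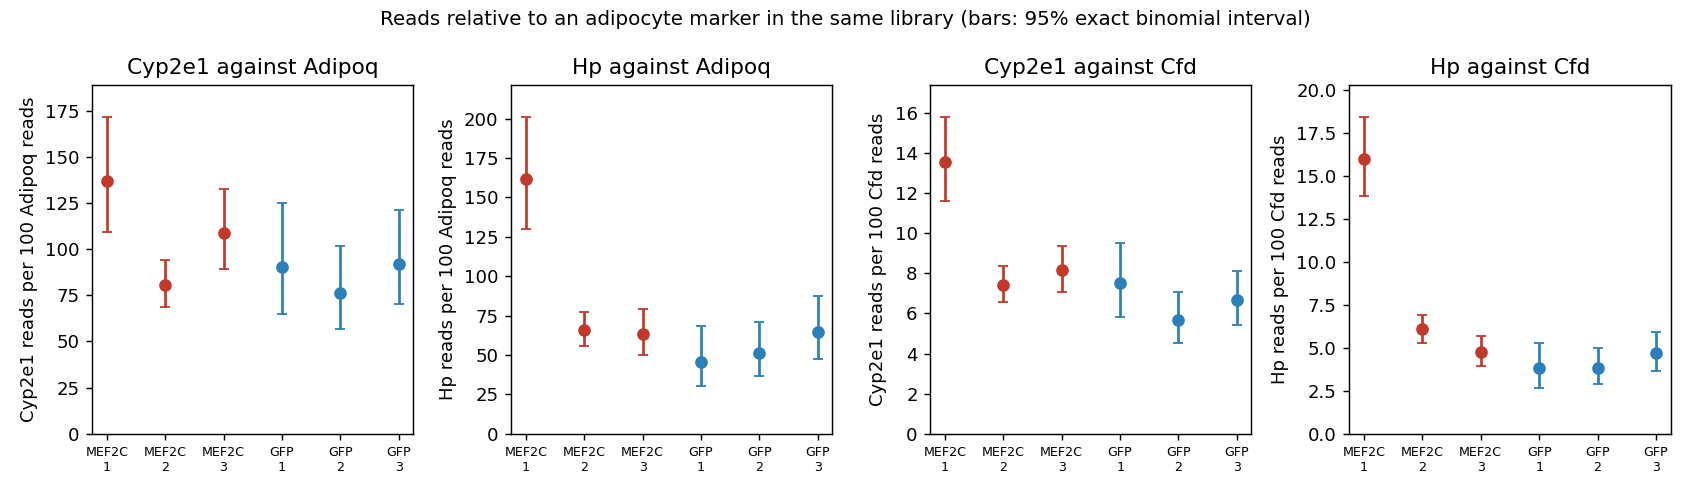
Reads of Cyp2e1 and Hp per 100 reads of Adipoq (left panels) or Cfd (right panels) in each library, MEF2C in red and GFP in blue, with 95% exact binomial intervals. Hp in MEF2C replicate 1, at 162 per 100 Adipoq reads, is apart from the other 5 libraries, which lie between 45.7 and 65.7.

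Relative to Fabp4, which varied little between libraries, the groups did not overlap for Cyp2e1 or for Hp. There were 11.6, 12.98 and 11.6 Cyp2e1 reads per 100 Fabp4 reads in the MEF2C libraries and 5.25, 5.89 and 6.13 in the GFP libraries. Hp reads per 100 Fabp4 reads were 13.6, 10.6 and 6.71 in the MEF2C libraries and 2.66, 3.98 and 4.30 in the GFP libraries. Relative to the sum of all 8 markers the log2 difference, MEF2C minus GFP, was 1.12 for Cyp2e1 and 1.53 for Hp, where Car3 alone makes up 56.0% to 77.3% of the sum. Relative to Adipoq, Lep, Plin1 and Cidec only, it was 0.40 for Cyp2e1 and 0.81 for Hp, within-group SDs being 0.33 and 0.60. The size of the difference from the adipocyte markers thus depended on which markers were summed. Without MEF2C replicate 1 the values relative to all 8 were 1.00 for Cyp2e1 and 1.15 for Hp.

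Levels of markers of other cells that make Hp or Cyp2e1 were uneven. Granulocyte genes summed to 1245, 7.72 and 6.53 CPM in MEF2C replicates 1, 2 and 3, against 4.15, 4.15 and 77.1 CPM in GFP replicates 1, 2 and 3. In MEF2C replicate 1 the calgranulin genes S100a8 and S100a9 stood at 563 and 216 CPM, and the granule gene Camp, chosen after its values were seen, at 166 CPM. Hp was at 3.51, 3.65 and 1.81 times its GFP mean in the same 3 MEF2C libraries. The part of granulocytes in the Hp level was not tested.

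Hepatocyte markers were near 0. Of the 14 listed, 0 had enough reads to be tested, 2 (Cyp3a11 and Cps1, chosen after their values were seen) had 0 reads in all libraries, and the list summed to 1.55, 11.95 and 0.726 CPM in the MEF2C libraries and to 1.19, 4.47 and 1.06 CPM in the GFP libraries. Alb, serum albumin, an abundant liver transcript, had 1, 12 and 0 counts in the MEF2C libraries and 2, 7 and 1 in the GFP libraries.

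**Figure D4:**
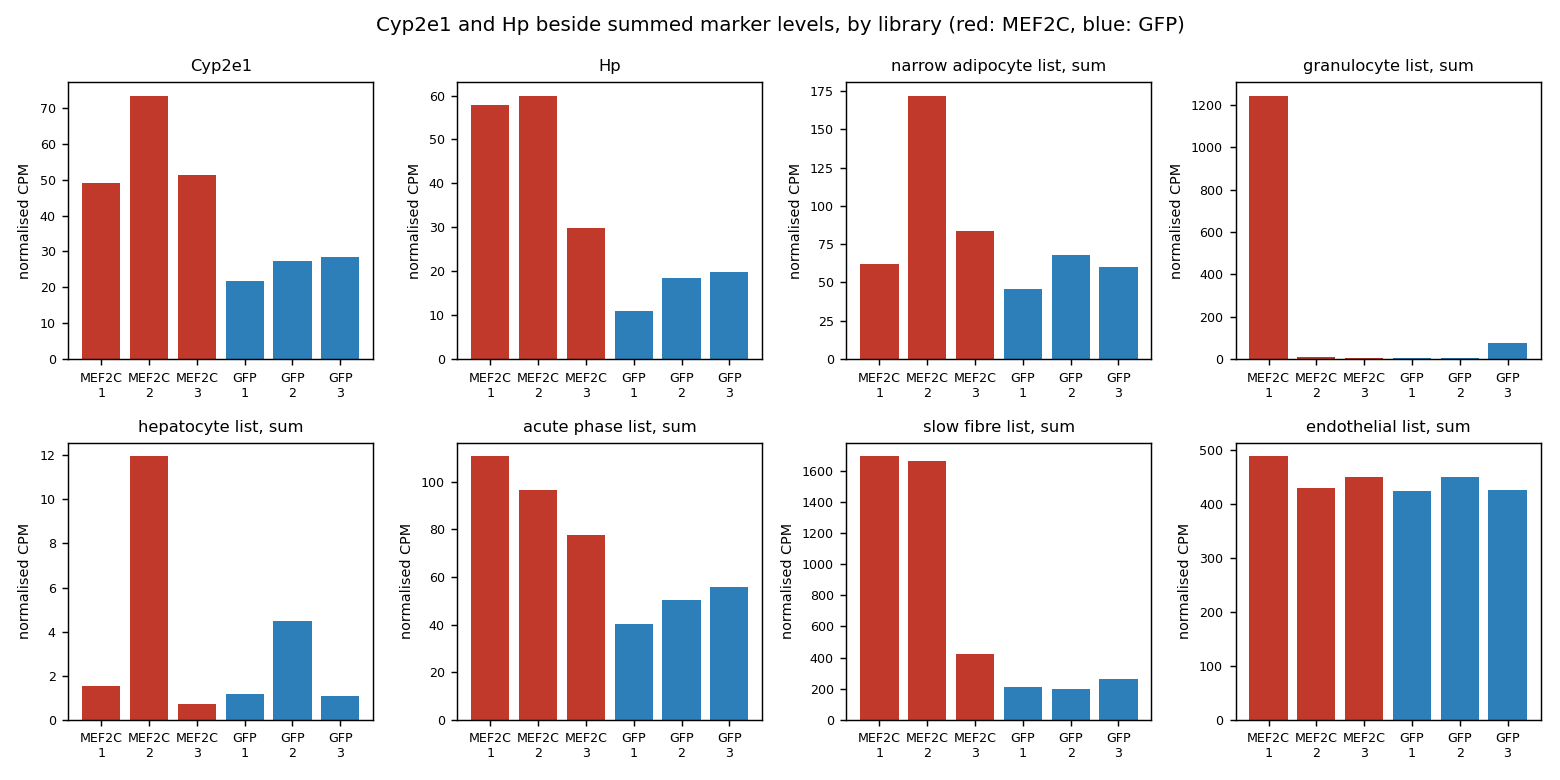
Normalised CPM of Cyp2e1 and Hp and summed normalised CPM of 6 marker lists in each library (bars from 0; MEF2C red, GFP blue). The granulocyte sum is 1245 CPM in MEF2C replicate 1 and at most 77.1 CPM elsewhere, the narrow adipocyte sum (Adipoq, Lep, Plin1, Cidec) peaks at 172 CPM in MEF2C replicate 2, and the endothelial sum is level.

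Among the genes tested, edgeR's quasi-likelihood test called 7 (0.0758% of 9229) at a Benjamini-Hochberg adjusted p under 0.05, and 527 (5.71%) had an unadjusted p under 0.05. Of the 9 tested members 1 was called, Cyp2e1, and the DESeq2 Wald test called 2, Cyp2e1 and Hp, where it called 0.293% of all genes. Groups that did not overlap, with MEF2C above, were seen for 2 of the 9, Cyp2e1 and Hp, and for 5.75% of all tested genes. Nothing is read from these counts, since this contrast helped to choose the members. Log2 fold changes were positive in 8 of the 9 tested members and their median was 0.73, while the median of all tested genes was 0.01. The Cyp2e1 call was lost without MEF2C replicate 2 and without any 1 of the 3 GFP libraries, and kept without MEF2C replicate 1 or 3; Hp was called without MEF2C replicate 3.

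Other adipocyte genes, from a list of 20 that left out the members, peaked mainly in MEF2C replicate 2. Of 16 tested, 13 were positive and 3 negative, 0 were called by edgeR (2 at an unadjusted p under 0.05, against 5.71% of all tested genes) and 0 by DESeq2, and the median log2 fold change was 0.53. MEF2C replicate 2 was the highest of the 6 libraries for 10 of the 16. The list summed to 529, 1226 and 735 CPM in MEF2C replicates 1, 2 and 3, against 496, 677 and 685 CPM in GFP replicates 1, 2 and 3. Cdo1, cysteine dioxygenase, stood at 12.2, 33.9 and 22.0 CPM in the MEF2C libraries and 10.4, 12.8 and 13.2 CPM in the GFP libraries (log2 fold change 0.90 ± 0.33, edgeR adjusted p = 0.808). Thrsp, a lipogenic regulator, stood at 165, 506 and 245 CPM in the MEF2C libraries against 132, 221 and 200 CPM in the GFP libraries. Retn, the adipocyte hormone resistin, chosen after its values were seen, stood at 64.3, 184 and 111 CPM in the MEF2C libraries against 64.0, 76.3 and 84.8 CPM in the GFP libraries. These 3 genes were within the GFP range in MEF2C replicate 1, as Adipoq was. The 3 negative genes were Retnla, Plin4 and Ces1d, of which Plin4 and Ces1d were chosen after their values were seen. Retnla stood at 62.2, 137 and 98.0 CPM in the MEF2C libraries against 64.0, 139 and 172 CPM in the GFP libraries. Plin4, at 94.1, 57.0 and 74.8 CPM against 77.9, 86.8 and 64.9 CPM, was highest in MEF2C replicate 1 and lowest in MEF2C replicate 2.

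Of the enzymes of fatty acid and triglyceride synthesis, most peaked in MEF2C replicate 2. It was the highest library for 9 of the 12 tested genes, of which 9 were positive, 0 were called by edgeR (1 at an unadjusted p under 0.05, against 5.71% of all) or DESeq2, and the median log2 fold change was 0.53. Acly, which makes cytosolic acetyl-CoA, was at 70.2, 304 and 111 CPM in MEF2C replicates 1, 2 and 3, against 98.7, 103 and 82.7 CPM in GFP replicates 1, 2 and 3. Fasn, fatty acid synthase, chosen after its values were seen, stood at 22.3, 116 and 78.4 CPM in the MEF2C libraries against 50.7, 46.9 and 30.7 CPM in the GFP libraries. For both, MEF2C replicate 1 was the lowest of all 6 libraries. Other genes of the list differed in this. Acsl1 stood at 134, 156 and 86.9 CPM in the MEF2C libraries against 122, 103 and 114 CPM in the GFP libraries. Srebf1 peaked in MEF2C replicate 3, at 8.55, 13.7 and 15.0 CPM against 9.78, 7.66 and 6.36 CPM. The list summed to 322, 855 and 433 CPM in the MEF2C libraries against 420, 374 and 359 CPM in the GFP libraries.

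Of the brown-fat genes, Ucp1 and Cidea peaked in MEF2C replicate 2 and the other tested ones did not. Ucp1, the uncoupling protein of brown adipocytes, chosen after its values were seen, was counted 0, 74 and 4 times in MEF2C replicates 1, 2 and 3, against 0, 1 and 0 times in GFP replicates 1, 2 and 3. Cidea, the droplet protein of brown adipocytes, stood at 3.11, 25.7 and 2.66 CPM in the MEF2C libraries and 1.78, 0.957 and 2.12 CPM in the GFP libraries (log2 fold change 2.65 ± 1.30, edgeR adjusted p = 0.928). Of the 8 genes listed 4 were tested and 0 were called by edgeR (0 at an unadjusted p under 0.05) or DESeq2, with a median of 0.22. MEF2C replicate 2 was the highest library for 1 of the 4, Cidea. Cox8b, a mitochondrial subunit that muscle also makes, was at 2547, 2409 and 1975 CPM in the MEF2C libraries and 2323, 2082 and 2371 CPM in the GFP libraries, and the log2 fold change of Prdm16, a regulator of brown-fat identity, was -0.39 ± 0.32 (SE).

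Relatives of the members in the same gene families were also counted. Of 10 tested paralogues 7 were positive, 0 were called by edgeR (1 at an unadjusted p under 0.05, against 5.71% of all) or DESeq2, and the median was 0.16. Plin2, the droplet coat of most cells, chosen after its values were seen, stood at 47.4, 98.6 and 50.8 CPM in the MEF2C libraries and 60.1, 69.6 and 66.5 CPM in the GFP libraries. Fabp3, the fatty acid carrier of muscle, stood at 2618, 2948 and 1368 CPM in the MEF2C libraries against 1488, 1453 and 1864 CPM in the GFP libraries (log2 fold change 0.53 ± 0.30, edgeR adjusted p = 0.928, and called without MEF2C replicate 3). Car14, a membrane carbonic anhydrase, stood at 216, 171 and 175 CPM in the MEF2C libraries against 107, 137 and 122 CPM in the GFP libraries without overlap (0.62 ± 0.14, edgeR adjusted p = 0.274). MEF2C stood above GFP without overlap for 2 of the 10 paralogues, against 5.75% of all tested genes.

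Other P450 genes and their partners, on a list that also holds Aldh2 and Adh1, had a median log2 fold change of 0.12. Of 11 tested genes 9 were positive, and 0 were called by edgeR (2 at an unadjusted p under 0.05, against 5.71% of all) or DESeq2. Cyp1a1, the P450 induced through the aryl hydrocarbon receptor, stood at 4.15, 2.99 and 6.05 CPM in the MEF2C libraries and 0.889, 1.91 and 0.265 CPM in the GFP libraries (2.13 ± 0.53, edgeR adjusted p = 0.367). Its reads were sparse, with counts of 16, 12 and 25 in the MEF2C libraries against 3, 6 and 1 in the GFP libraries. Por, the reductase that feeds electrons to Cyp2e1, chosen after its values were seen, stood at 23.1, 30.9 and 20.6 CPM in the MEF2C libraries against 21.0, 25.5 and 22.8 CPM in the GFP libraries. Cyb5r3, another electron partner, was higher in each MEF2C library, at 123, 115 and 99.2 CPM, than in the GFP libraries, at 80.0, 91.9 and 91.2 CPM. Its log2 fold change was 0.36 ± 0.14 (edgeR adjusted p = 0.808).

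Acute phase genes, the plasma proteins that rise with inflammation in liver and fat, were few in the table with enough reads. All 4 tested of 12 were positive, with a median log2 fold change of 0.91, and 0 were called by edgeR (2 at an unadjusted p under 0.05, against 5.71% of all) or DESeq2. Orm1, orosomucoid, was at 10.9, 25.4 and 18.4 CPM in MEF2C replicates 1, 2 and 3, against 6.52, 9.25 and 8.75 CPM in GFP replicates 1, 2 and 3 (1.16 ± 0.30, edgeR adjusted p = 0.440). C3, complement component 3, stood at 42.2, 55.0 and 43.1 CPM in the MEF2C libraries against 24.6, 29.4 and 34.7 CPM in the GFP libraries (0.66 ± 0.18, adjusted p = 0.440). Lcn2, lipocalin 2, a granule protein of neutrophils, chosen after its values were seen, stood at 45.3, 2.74 and 2.90 CPM in the MEF2C libraries against 1.19, 1.28 and 4.24 CPM in the GFP libraries. Orm1 and C3 had every MEF2C library above every GFP library, and Lcn2 was high in MEF2C replicate 1. Such groups without overlap were seen for 5.75% of all tested genes. They were also seen for 8 of 9 slow-fibre genes, 3 of 6 haptoglobin partners and 2 of 11 genes of the P450 list. In the endothelial, macrophage and fibro-adipogenic progenitor lists there were 0.

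Haptoglobin's partners are the haemoglobin chains and the receptor that takes up the complex. Hba-a2, an alpha-globin whose near-identical copy makes its count uncertain, stood at 4816, 2443 and 2738 CPM in the MEF2C libraries and 2080, 1738 and 2298 CPM in the GFP libraries (0.71 ± 0.27, edgeR adjusted p = 0.856). Cd163, the macrophage receptor for haptoglobin bound to haemoglobin, chosen after its values were seen, stood at 10.1, 15.4 and 18.1 CPM in the MEF2C libraries against 9.78, 12.4 and 12.5 CPM in the GFP libraries. Of the 6 partners 5 were positive, 0 were called by edgeR (2 at an unadjusted p under 0.05, against 5.71% of all) or DESeq2, and the median was 0.63.

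**Figure D5:**
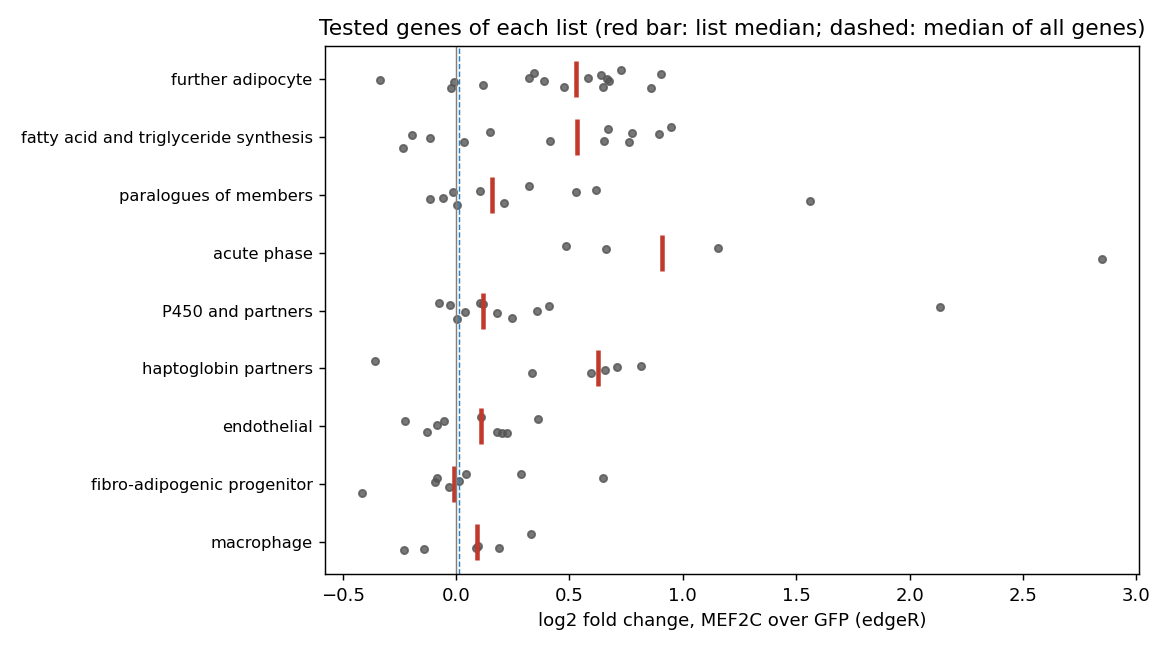
Log2 fold change, MEF2C over GFP (horizontal axis), of each tested gene of 9 lists, with red bars at the list medians and a dashed line at the median of all tested genes, 0.01. Further adipocyte and synthesis genes have medians of 0.53, while fibro-adipogenic progenitor and macrophage genes have medians of -0.01 and 0.09.

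Markers of the connective tissue around fat had list medians between -0.01 and 0.11. By library, macrophage genes summed to 107, 157 and 172 CPM in the MEF2C libraries against 124, 139 and 171 CPM in the GFP libraries. Fibro-adipogenic progenitor genes, the stromal cells that can become adipocytes, were positive in 4 of 8 with a median of -0.01, and macrophage genes in 4 of 6 with a median of 0.09. Endothelial genes were positive in 5 of 9 with a median of 0.11, and in these 3 lists 0 were called by edgeR (0 at an unadjusted p under 0.05) or DESeq2. Slow-fibre genes, which bear on Car3, summed to 1694, 1665 and 422 CPM in MEF2C replicates 1, 2 and 3, against 208, 198 and 265 CPM in GFP replicates 1, 2 and 3, and all 9 were positive with a median of 3.51 (0 called by edgeR, 8 at an unadjusted p under 0.05, against 5.71% of all tested genes, and 7 by DESeq2, against 0.293%). Hp, like the slow-fibre genes, was higher in MEF2C replicates 1 and 2 than in replicate 3, and Car3 was not. The part of fibre type in these levels was not tested.

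Profiles over the 6 libraries were compared by the root mean square difference of log2 CPM after centring each gene. Adipoq was the marker nearest to Cyp2e1, at 0.28, in place 23 of 9228 other tested genes, followed by Cfd at 0.38 (place 139) and Cidec at 0.42 (place 239). Car3 was the farthest, at 0.72 (place 6568). Hp was farther than Cyp2e1 from each of the 7 tested markers, at 0.58 from Adipoq (place 97) and 0.70 from Cfd (place 500), and nearer to Cyp2e1 itself, at 0.38 (place 9). Since all are measured in the same 6 libraries and the members were chosen for this contrast, these places are a description.

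Genes outside the members with the profile nearest to Cyp2e1 were Hacd2, a dehydratase of fatty acid elongation, at 0.15, Ltc4s, leukotriene C4 synthase, at 0.17, Fam213a at 0.22, Orm1 at 0.22 and Pygl, the liver form of glycogen phosphorylase, at 0.24. Hacd2 was at 8.55, 11.95 and 7.99 CPM in MEF2C replicates 1, 2 and 3, against 4.44, 5.10 and 4.77 CPM in GFP replicates 1, 2 and 3. Nearest to Hp were Thbs1, the matrix protein thrombospondin 1, at 0.31, Bdh1, an enzyme of ketone bodies, at 0.35, Ltc4s at 0.37, Tpm3, the slow-fibre tropomyosin, at 0.37 and the lymphatic chemokine gene Ccl21a at 0.38, whose near-identical copies make its count uncertain. Ccl21a, at 94.3, 81.4 and 77.2 CPM in the MEF2C libraries and 24.6, 45.9 and 27.6 CPM in the GFP libraries, was the one gene of these that edgeR called (adjusted p = 0.043). Thbs1 was at 25.1, 27.1 and 10.6 CPM in MEF2C replicates 1, 2 and 3, against 5.93, 9.57 and 14.3 CPM in the GFP libraries, and in the MEF2C group it had, as Hp did, replicates 1 and 2 above replicate 3.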

How the data were processed

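RNA from frozen skeletal muscle was measured in 6 Nanopore PCR-cDNA libraries, 3 per group, from 1 µg of total RNA and 14 PCR cycles, per the labels' protocols. The deposited table gives, per the file headers, raw read counts per gene and the CPM of each library by the authors. The CPM were used only to recover library totals, of which listed genes hold 95.6% to 96.4%. The submitters' processing notes list minimap2, the build GRCm38 and DESeq2 1.6.3 and give none a role. How reads were assigned to genes, by which annotation and with what strand setting, is not given in the sources used here. The 30 rows naming no gene held 0 counts and were left out.

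The main test was that of edgeR 4.0.16 under R 4.3.3 (quasi-likelihood, robust dispersion, filter by group, TMM, all 9229 passing genes, Benjamini-Hochberg). Standard errors came from the F statistic. Normalised CPM used TMM-scaled listed totals, so 3 counts are 0.726 to 0.957 CPM. Counting intervals are exact at 95%. The gene test was checked on simulated data. Alternatives used DESeq2 1.42.0, limma 3.58.1 (voom), other scalings and filters, a block on replicate number and each library left out. Gene coordinates are from GENCODE vM21 (GRCm38) and promoter windows from RefSeq (GRCm38.p6).

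The members, the 13 further lists (146 genes) and the naming rule were chosen with earlier results of these data known. The rule names all members, Mef2c, Prr14, the 5 genes nearest in profile to Cyp2e1 and to Hp with a mean of at least 20 counts, and per list up to 3 members by smallest p and 2 by level, here in part. Nothing says that replicates are separate animals, so the spread between them may be technical. No pair of libraries in a group agreed within sampling noise (chi-square per degree of freedom 4.95 to 10.3). Reads carry no molecular identifiers, so intervals and floors cover counting error only.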

Additional observations from a re-analysis of the deposited data

How the results depend on the processing

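The count of 1 called member was also 1 with DESeq2 size factors, library totals, no low-count filter and without MEF2C replicate 1. It was 0 with the strict filter, limma-voom, non-robust dispersion and the replicate block, 2 with the DESeq2 Wald test, and between 0 and 2 over the leave-one-out fits. Over all tested genes the calls numbered 7 in the main fit, 7 with DESeq2 size factors, 6 with library totals and 35 with no filter. They numbered 3 with the strict filter, 3 with limma-voom, 0 with non-robust dispersion and 27 with the DESeq2 Wald test. Without 1 library they ranged from 0 (GFP replicate 3) to 22 (MEF2C replicate 3). Cyp2e1 kept its direction in all 14 alternatives, with a log2 fold change of 0.95 (without MEF2C replicate 2) to 1.30 (library totals), and Hp likewise with 1.34 (without GFP replicate 1) to 1.83 (without MEF2C replicate 3). Library totals moved the median of all genes to 0.14, against 0.01 with TMM. The signs that reversed were those of Fabp4 (-0.046) and Scd1 (-0.043) without MEF2C replicate 2, and of Car3 without MEF2C replicate 1 (0.012) and without GFP replicate 2 (0.072). Over the libraries left out Fabp4 reached 0.171, Scd1 0.906 and Car3, at its lowest, -0.390. Called genes in the other lists, of 146 listed, numbered 0 in the main fit, beside 7 of 9229 tested genes. With no low-count filter they numbered 4 (Atp2a2, Car14, Cyp1a1 and Orm1), beside 35 of 15334 genes. With the DESeq2 Wald test they numbered 7, beside 27 of 9229. Over the leave-one-out fits they numbered between 0 and 6, with 6 without MEF2C replicate 3, beside 22 of 9485. These causes were not tested. Relative to all 8 markers, Cyp2e1 differed by 1.12 (log2), and by 0.65 with the mean of log2 values and 0.40 with the 4 narrow markers. With 2 choices made after seeing the data it differed by 0.31 (Adipoq alone) and 0.74 (without Car3). Hp differed by 1.53, by 1.04 with the mean of log2 values, 0.81 with the narrow markers, 0.71 with Adipoq alone and 1.15 without Car3. Over the libraries left out the ranges were 0.99 to 1.32 for Cyp2e1 and 1.15 to 1.98 for Hp. Same-numbered libraries did not deviate together (Pearson r over genes of -0.23, 0.05 and -0.25 for numbers 1, 2 and 3). Differently numbered ones reached 0.32 (MEF2C replicate 3 with GFP replicate 1). Deviations from a mean of 3 libraries cannot decide whether the numbers pair them. With the block edgeR called 2 genes in all, against 7 without it. Depth limits Lep and Plin1, whose highest counts were 31 and 11.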
